A study of Mus musculus with 15 samples.

Results

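The interleukin-1 (IL-1) family genes described here encode ligands, an antagonist and receptors, and number 8: Il1a, Il1b, Il1rn, Il33, Il18, Il1r1, Il1rl1 and Il1rap. They were taken from the table of expression values by symbol, and 16 of its 65522 transcription units (assembled loci) carried one of these symbols. The genes were chosen by family with their FPKM values in these same populations in view, because several of them were known to vary between the adapted lines, so their levels are given as a description. The populations were female C57BL/6 mouse embryonic fibroblasts, profiled by RNA sequencing of whole cultures. WT and CIZ1 null cells were compared early in culture (primary) and as long-passaged derivatives of the same populations (culture-adapted), with 3 populations in each of these 4 groups. CIZ1 is a nuclear matrix protein, and the null allele is a gene trap inserted behind the first exon, made in 1 embryonic stem cell clone; each adapted line is the continued culture of 1 embryo's cells and was measured as a mixed population. The third primary CIZ1 null population, E13.17, carried an uninduced doxycycline-inducible GFP-CIZ1 transgene. The paper lists the adapted line from E13.17 with this transgene as well. Another untreated population, S13, carried it too, as did 2 populations, S14 and S15, that received doxycycline at 5 to 10 µg per ml. The paper reports induction in cells of E13.17 and of another null embryo, measured after a day, so treated and untreated populations can share an embryo. Populations are named below by embryo, or by sample number where the embryo was not assigned.

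IL-1α, IL-1β, IL-18 and IL-33 are cytokines that alert cells to injury and infection. IL-1α and IL-1β bind IL1R1, which signals once the shared co-receptor IL1RAP joins it, and the IL-1 receptor antagonist encoded by Il1rn occupies the same receptor without signalling. IL1RL1, also called ST2, pairs with IL1RAP to receive IL-33, and it is also made as a secreted form that captures IL-33. Fibroblasts are a classical target of these cytokines: signalling through MYD88, IRAK kinases and NF-κB raises chemokines, acute phase proteins and matrix proteases.

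RefSeq promoter windows (GRCm38.p6, 250 bases before to 50 after a gene start) were found for all 8 genes, 13 windows in all. They were searched on both strands for the AP-1 motif TGANTCA and for the classical κB consensus, because both factors act downstream of IL-1 receptors. The AP-1 letters were present in 7.81% of 32851 mouse windows and in 2 of the 13, at the upstream start of Il1rn and at Il1a. The κB consensus was present in 8.46% of mouse windows and in 1 of the 13, at a start of Il1r1. The matched stretches are shown 5′ to 3′ on the gene's strand with the motif in capitals, since Il1rn is the gene whose level varied most below and Il1a and Il1r1 encode the agonist and the receptor that its product competes for.
Il1rn, AP-1, chr2:24336708-24336737, plus strand: ttctgctagacTGAGTCAcgcctctggaag
Il1a, AP-1, chr2:129309966-129309995, minus strand: gcagagaagccTGACTCAgacttaagtctc
Il1r1, κB on the other strand, chr1:40266344-40266373, plus strand: cagggattttGGAATGCCCCcaaggagatg
The matches began 141, 12 and 232 bases before the respective starts. A match is a string of letters and not a measured binding site, and the expression values do not separate transcripts by their start.

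Expression is given as FPKM, fragments scaled to the length of the transcript and to the size of the library, so levels of different genes can be set side by side. Where a gene had several units at the same coordinates, the unit with the highest mean was used, since overlapping units can divide reads. Relative sequencing depth, read from the smallest values, ran from 0.483 (S13) to 1.63 times that of primary WT E14.4. It was 0.542 to 1.19 in the 6 adapted lines. Ciz1 was at 18.7 to 25.0 FPKM in the 6 WT populations and at 0.0546 to 0.724 FPKM in the 7 CIZ1 null populations without doxycycline, and it was 296 and 191 FPKM in the treated populations, as labelled. All 8 fibroblast markers were above 1 FPKM in every primary population. Their summed level was 7935 to 8616 FPKM in the 6 primary populations of the main comparisons and 2075 to 4528 FPKM in the adapted lines, where 3 of 8 passed the test over both genotypes, in which 33.3% of all units passed: Col1a1, Col1a2 and Vim fell (limma adjusted p = 0.00257, 0.0115 and 0.00113). In bulk RNA, fewer cells of a type and less RNA per cell cannot be told apart.

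In primary cells Il1rl1, which encodes the receptor for IL-33 and its secreted form, was by far the most abundant of the 8 transcripts. The values do not separate these forms. The agonist ligands were close to or at 0. Over the 6 primary populations Il1rl1 lay at 102 to 144 FPKM and overlapped no other member. Il1rn followed at 12.5 to 38.6 FPKM, Il1r1 at 8.19 to 16.7 FPKM and Il1rap at 5.00 to 13.7 FPKM, and each of these ranges overlapped its neighbour in that order. Il18 (0.313 to 1.30 FPKM) and Il33 (0.121 to 0.499 FPKM) also overlapped each other. Il1a did not exceed 0.109 FPKM in these populations and Il1b did not exceed 0.153 FPKM. The primary cultures therefore held transcripts of receptor, co-receptor and antagonist with scarcely any transcript of IL-1α or IL-1β.

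**Figure D1:**
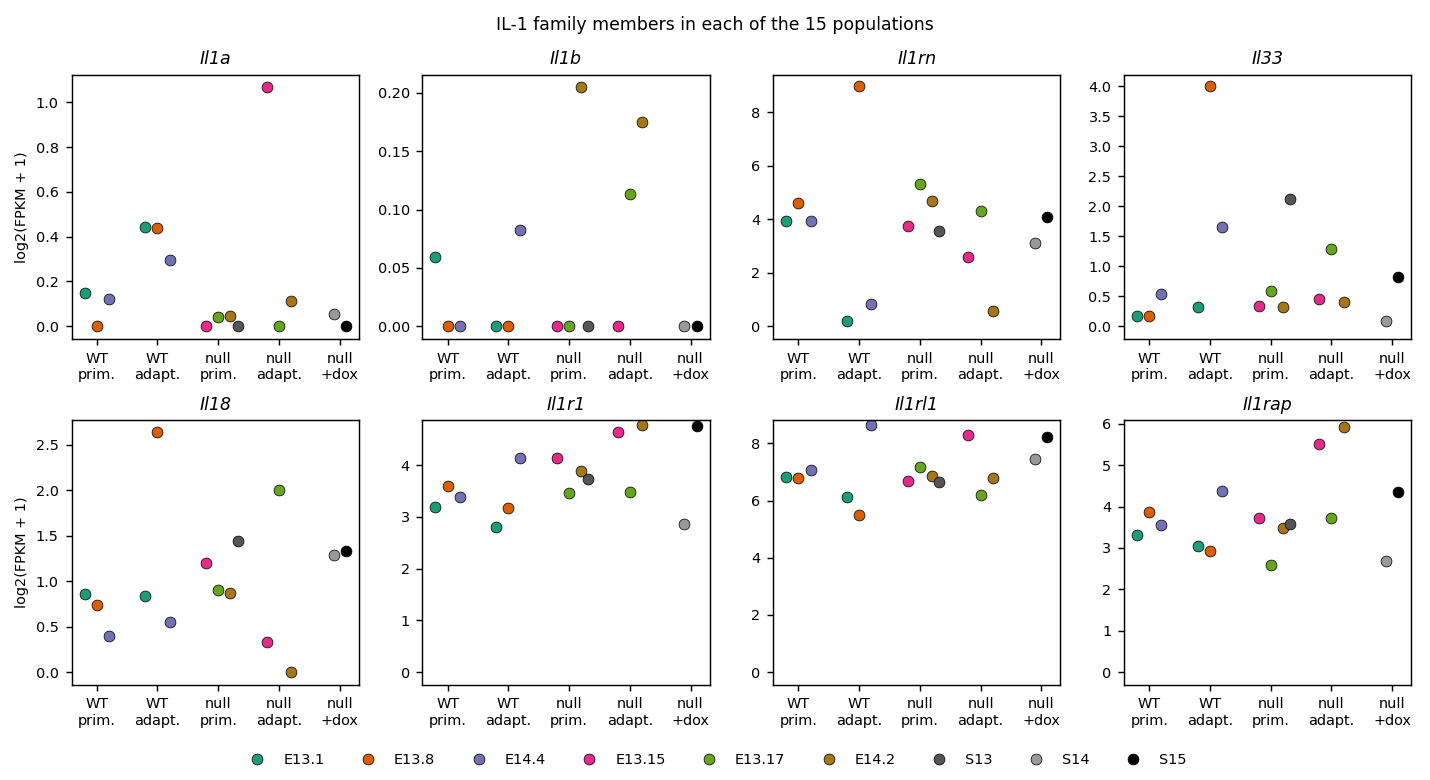
Level of each member, as log2(FPKM + 1), in the 15 populations; each point is 1 population, coloured by embryo or sample number, in 5 columns (WT primary, WT adapted, CIZ1 null primary including S13, CIZ1 null adapted, and CIZ1 null with doxycycline), with a separate vertical scale for each gene. Adapted WT E13.8 is the highest point for Il1rn (499 FPKM), Il33 (15 FPKM) and Il18 (5.23 FPKM).

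Adaptation was compared within WT cells, within CIZ1 null cells and over both genotypes, to see which of these transcripts shift in long-term culture. Il1rn (chr2:24336852-24351822), which encodes the receptor antagonist, was far lower in 3 lines than in their primary populations, moderately lower in 2, and far higher in 1. In primary WT cells it was at 14.3 FPKM in E13.1, 23.4 FPKM in E13.8 and 14.4 FPKM in E14.4. In the adapted lines of the same embryos it was at 0.143, 499 and 0.763 FPKM. The E13.8 line stood above every other population and the other 2 WT lines below every primary population, so the adapted values enclosed the primary ones. In primary CIZ1 null cells the levels were 12.5 FPKM in E13.15, 38.6 FPKM in E13.17 and 24.6 FPKM in E14.2, and in the adapted lines they were 5.04, 18.7 and 0.493 FPKM. Each null line was lower than its own primary population, by 2.48-fold, 2.06-fold and 49.9-fold, although the groups overlapped because adapted E13.17 was higher than primary E13.15. In WT cells the line from E13.1 was 100-fold and that from E14.4 18.9-fold lower, and that from E13.8 was 21.3-fold higher.

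No change of Il1rn was called on average. The log2 change, on the log2(FPKM + 1) scale, was -0.84 ± 2.22 (SE) in WT cells, -2.09 ± 0.93 in CIZ1 null cells and -1.46 ± 1.28 over both genotypes (limma adjusted p = 0.825, 0.191 and 0.408). Populations were left out 1 at a time, and only the omission of adapted WT E13.8, the extreme line, gave a call. Without it the change over both genotypes was -2.79 ± 0.60 (limma adjusted p = 0.00686) and that in WT cells -3.66 ± 0.32 (limma adjusted p = 0.0157). Il1rn was chosen with its variation between lines known, so these values are a description and not a test of a fall. The SD between lines of a genotype was 3.70 on the log2 scale, larger than that of 99.9% of the units tested, and that between primary populations was 0.62, larger than that of 94.3%.

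Il33 (chr19:29925113-29960760) encodes a nuclear alarmin released from damaged cells. It was at 0.127, 0.121 and 0.448 FPKM in primary WT E13.1, E13.8 and E14.4, and at 0.255, 15 and 2.15 FPKM in their adapted lines. In CIZ1 null cells it went from 0.263 to 0.376 FPKM in E13.15, from 0.499 to 1.45 FPKM in E13.17 and from 0.252 to 0.319 FPKM in E14.2. In the unit used, every adapted line was thus above its own primary population, a pattern shared by 14.4% of all units tested. The groups overlapped, however, and only 3 lines exceeded 1 FPKM. In another unit of Il33 at the same coordinates the E13.15 line was lower, at 0.155 FPKM against 0.229 FPKM in its primary population. Il33 reached the mean of 1 FPKM over the 12 populations only through adapted WT E13.8. The log2 change over both genotypes was 1.0 ± 0.52 (limma adjusted p = 0.158), and in WT cells 1.70 ± 0.87 (adjusted p = 0.235).

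Il18 (chr9:50533086-50581840) encodes a cytokine stored as an inactive precursor, and its unit spans neighbouring genes. It was at 0.810, 0.668 and 0.313 FPKM in primary WT E13.1, E13.8 and E14.4 and at 0.787, 5.23 and 0.460 FPKM after adaptation. In CIZ1 null cells it went from 1.30 to 0.261 FPKM in E13.15, from 0.871 to 3.00 FPKM in E13.17 and from 0.833 FPKM to a listed 0 in E14.2. It was higher in 3 of 6 lines and lower in 3, the gains being in E13.8, E13.17 and, slightly, E14.4. The change over both genotypes was 0.23 ± 0.42 (limma adjusted p = 0.701).

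Il1a (chr2:129297369-129309972) and Il1b (chr2:129364569-129375748) encode the agonists of IL1R1. Il1a was under 1 FPKM in 14 of 15 populations and reached 1.10 FPKM in adapted CIZ1 null E13.15. In adapted WT cells the unit used was listed at 0.226 to 0.359 FPKM, above the 0 to 0.109 FPKM of primary WT cells without overlap. Of the units tested in that comparison, all with a mean of at least 1 FPKM, 38.7% had no overlap, in either direction. In another unit of Il1a at the same coordinates the WT groups overlapped, with primary E14.4 at 0.144 FPKM and adapted E13.1 at 0. In the other adapted null lines the unit used was at 0 and 0.0828 FPKM. Il1b was listed at 0 in 10 of 15 populations and at no more than 0.153 FPKM in the rest. Both were below the mean of 1 FPKM required for testing.

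**Figure D2:**
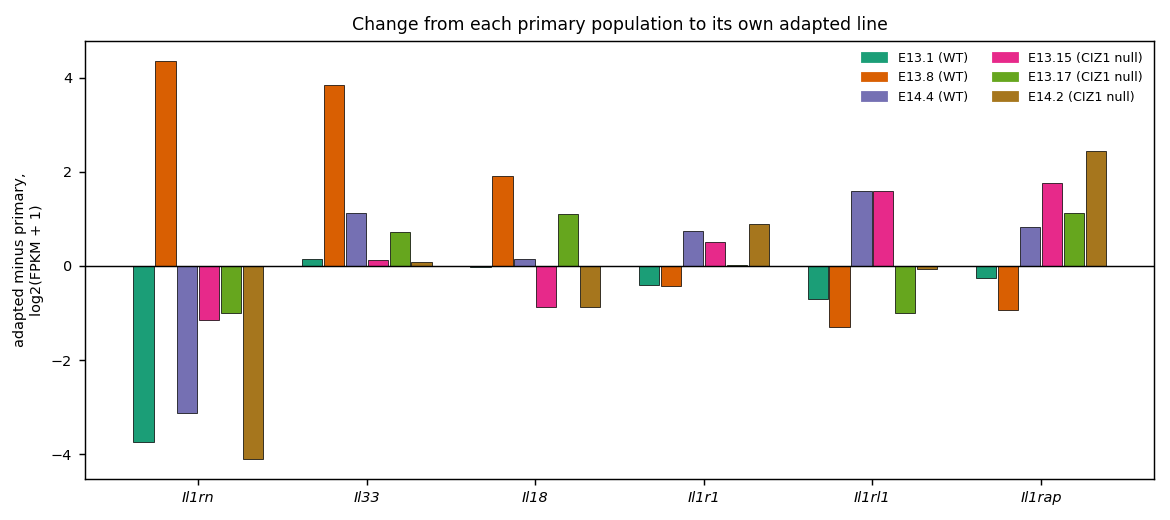
Difference between each adapted line and its own primary population, in log2(FPKM + 1), for the 6 members with a mean of at least 1 FPKM; each bar is 1 embryo and 0 is no difference. Il1rn is below 0 in 5 of 6 embryos, from -1.01 to -4.10, and at 4.36 in E13.8. Il33, in the unit used, is above 0 in all 6.

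The receptor genes varied between lines as well, though over a smaller range. Il1r1 (chr1:40225079-40317257), the signalling receptor for IL-1, was at 8.19, 11.1 and 9.50 FPKM in primary WT E13.1, E13.8 and E14.4 and at 5.95, 8.06 and 16.7 FPKM in the adapted lines. In CIZ1 null cells it went from 16.7 to 24.0 FPKM in E13.15, from 10.1 to 10.2 FPKM in E13.17 and from 13.8 to 26.3 FPKM in E14.2. It was 1.44-fold to 1.90-fold higher in the lines from E13.15, E14.2 and E14.4 and nearly level or lower in the others, so the groups overlapped. The change over both genotypes was 0.22 ± 0.28 (limma adjusted p = 0.570).

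Il1rl1 (chr1:40429562-40465430), the IL-33 receptor, had a narrow range in primary cells and a wide one after adaptation. Primary WT E13.1, E13.8 and E14.4 were at 113, 110 and 132 FPKM, and their adapted lines at 68.8, 44.4 and 400 FPKM. Primary CIZ1 null E13.15, E13.17 and E14.2 were at 102, 144 and 114 FPKM, and their adapted lines at 312, 71.5 and 109 FPKM. The lines from E13.15 and E14.4 were 3.05-fold and 3.03-fold higher than their primary populations, and those from E13.1, E13.8 and E13.17 were 1.64-fold, 2.48-fold and 2.02-fold lower. The mean change was close to 0, at 0.02 ± 0.49 over both genotypes (limma adjusted p = 0.979). Without adapted WT E14.4, the highest line, the change in WT cells was -1.08 ± 0.23 (limma adjusted p = 0.0371). No other omission gave a call of Il1rl1, and the value of this line was known, so this is a description.

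Il1rap (chr16:26581703-26755502), the co-receptor used by the receptors for IL-1 and IL-33, was higher in all 3 adapted CIZ1 null lines than in their own primary populations. It went from 12.3 to 44.4 FPKM in E13.15, from 5.00 to 12.2 FPKM in E13.17 and from 10.1 to 59.4 FPKM in E14.2. In WT cells it went from 8.86 to 7.28 FPKM in E13.1, from 13.7 to 6.65 FPKM in E13.8 and from 10.8 to 19.9 FPKM in E14.4. The null groups touched only where adapted E13.17 (12.2 FPKM) lay beside primary E13.15 (12.3 FPKM). The change in null cells was 1.78 ± 0.61, with an unadjusted p of 0.0246 that did not pass after adjustment in limma (adjusted p = 0.121). Without adapted E13.17, the lowest null line and listed with the transgene, it was 2.45 ± 0.38 (limma adjusted p = 0.0396). No other omission gave a call of Il1rap, and the value of this line was known, so this is a description. In WT cells it was -0.12 ± 0.41 (adjusted p = 0.867).

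Of the members, 6 had a mean of at least 1 FPKM and could be tested in WT cells, 5 in CIZ1 null cells and 6 over both genotypes, and 0 were called in each. Over all units tested 9.55%, 4.86% and 33.3% were called in these comparisons. By unadjusted limma p under 0.05 the members numbered 0, 1 (Il1rap) and 0, against 30.6%, 29.3% and 44.1% of units. The median log2 change of the members tested was -0.07, 0.18 and 0.23, against -0.05, -0.04 and -0.05 over all units. The 6 members tested over both genotypes had SDs between adapted lines of 0.70 to 3.70 on the log2 scale and SDs between primary populations of 0.18 to 0.62. Il33 and Il18 reached the mean of 1 FPKM over the 12 populations only through adapted WT E13.8, and the members were chosen with their variation between adapted lines known, so these SDs are a description.

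**Figure D3:**
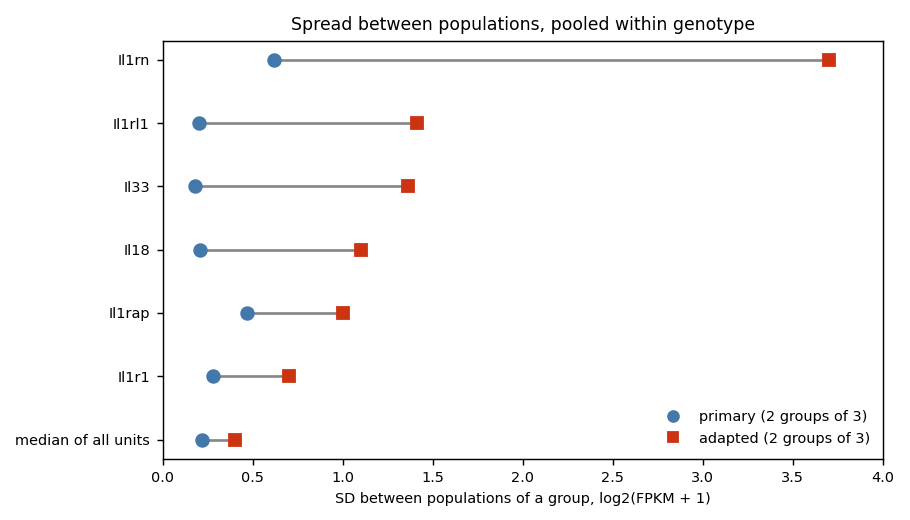
SD between populations of the same genotype, in log2(FPKM + 1), pooled over the WT and CIZ1 null groups of 3; circles are primary populations, squares adapted lines, and the lowest row is the median over all units tested. Il1rn goes from 0.62 between primary populations to 3.70 between adapted lines, and the members were chosen with this variation known.

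Among the members, the 3 receptor genes ranked the same 3 adapted lines highest. Il1rl1 in the E14.2 line (109 FPKM) nevertheless lay within the range of the 6 primary populations (102 to 144 FPKM). The lines from E13.15, E14.2 and E14.4 had the highest 3 adapted values of Il1r1 (16.7 to 26.3 FPKM, against 5.95 to 10.2 FPKM in the others), of Il1rl1 (109 to 400 against 44.4 to 71.5 FPKM) and of Il1rap (19.9 to 59.4 against 6.65 to 12.2 FPKM). Il18, in the unit used, had the opposite order, at 0 to 0.460 FPKM in these lines and 0.787 to 5.23 FPKM in the others. In another unit of Il18 at the same coordinates the lines overlapped, with adapted WT E14.4 at 0.559 FPKM and adapted WT E13.1 at 0. These orders were seen after the values were known and have no test. Of all units, 7.87% put these 3 lines above the rest and 7.69% put them below. The 3 lines comprise 1 WT and 2 CIZ1 null lines. Their summed fibroblast markers (2685 to 4475 FPKM) overlapped those of the other lines (2075 to 4528 FPKM), as did their relative depths. Of the 8 fibroblast markers, 0 were under 1 FPKM in each of these 3 lines, and 1 was in each of the others. Summed epithelial markers were at 0 to 0.0746 FPKM in these 3 lines and 0.104 to 0.413 FPKM in the others. The part of any of these in the order of the lines was not tested.

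A neighbour on chromosome 1 showed the same order. Il1rl2, the receptor for IL-36 cytokines, was at 19.1, 18.4 and 22.1 FPKM in the adapted lines from E13.15, E14.2 and E14.4, and at 2.42, 1.18 and 0.106 FPKM in those from E13.1, E13.8 and E13.17. Its primary levels were 4.29 to 16.1 FPKM. Il18rap, a subunit of the IL-18 receptor, reached 25.1 FPKM in adapted WT E14.4, the line with the most Il1rl1, and 0.633 to 8.09 FPKM in the other adapted lines. Il18r1, its partner, did not exceed 0.134 FPKM in any population. Over all 15 populations the Pearson correlation of log2(FPKM + 1) was 0.86 between Il1r1 and Il1rap, 0.55 between Il1r1 and Il1rl1, 0.71 between Il1rn and Il18 and 0.70 between Il33 and Il18, descriptions over populations that share embryos and, for the last pairs, 1 extreme line.

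Adapted WT E13.8 held the highest level of Il1rn, Il33 and Il18 and the lowest of Il1rl1 among the populations. Of all units tested, 8.38% had their highest value of the 12 main populations in this line. The genes closest to Il1rn over the 15 populations, among 18384 named units, were Pitx1 (r = 0.901), Mab21l2 (r = 0.901) and Mab21l1 (r = 0.888), developmental regulators; without adapted WT E13.8 the correlations were 0.829, 0.808 and 0.811. Il18 was also close to Mab21l1 (r = 0.875), followed by Serpinb1a and Ano1. Il33 was closest to Mbnl3 (r = 0.864), Serf1 and Slc30a6, and without this line the first of these fell to 0.664. For the receptors the closest genes were Hspa4, Angpt2 and Ccl8 for Il1r1 (r = 0.881 to 0.895), Emilin2, Prdx6 and Esd for Il1rl1 (r = 0.851 to 0.862) and H2-T10, Papd5 and Dock4 for Il1rap (r = 0.897 to 0.931).

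Il1rn is also a macrophage transcript, so markers of myeloid cells are given beside it. The 10 myeloid markers summed to 9.73 to 104 FPKM in the 6 primary populations and to 3.68 to 20.1 FPKM in the adapted lines. Over both genotypes 5 of 10 could be tested and all 5 passed, where 33.3% of all units passed. Lyz2, Tyrobp, Cd68 and Csf1r fell and Cd14, which fibroblasts can also express, rose. Cd68 lay at the threshold (limma adjusted p = 0.05 after rounding). Tyrobp was listed at 0 in all 6 adapted lines and Aif1 too, while Tyrobp was at 0.179 to 9.87 FPKM in primary cells. Adapted WT E13.8, with 499 FPKM of Il1rn, had a myeloid sum of 10.4 FPKM and 5 of 10 markers at 0. Primary CIZ1 null E13.15 had a sum of 9.73 FPKM, against 104 FPKM in E13.17, and 12.5 FPKM of Il1rn. The part of myeloid cells in the lower Il1rn of the other adapted lines was not tested. Of 7 mast cell markers, which would accompany Il1rl1 in that cell type, at least 6 were under 1 FPKM in every population. In every population but S13 the remaining marker was not, and the 7 summed to 1.08 FPKM (S13) to 15 FPKM (primary WT E14.4). The part of mast cells in Il1rl1 was not tested.

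**Figure D4:**
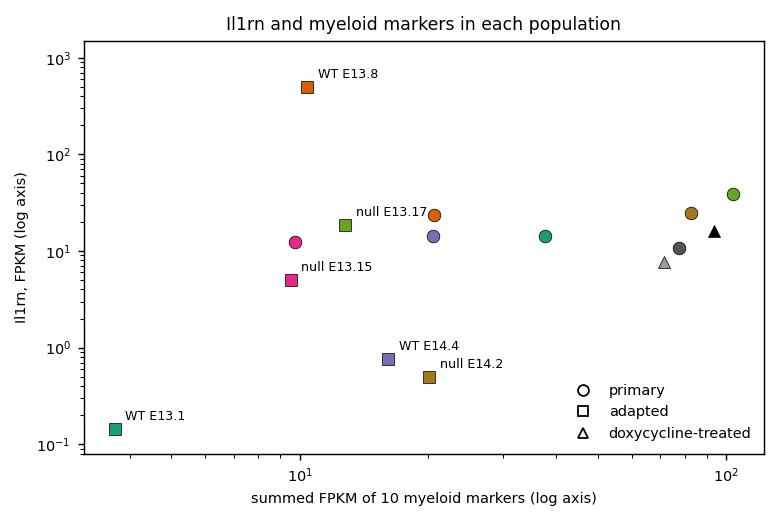
Il1rn level against the summed level of 10 myeloid markers, both in FPKM on log axes; each point is 1 population, circles primary, squares adapted (named) and triangles doxycycline-treated. Adapted WT E13.8 has the highest Il1rn, 499 FPKM, at a myeloid sum of 10.4 FPKM, and primary populations with sums from 9.73 to 104 FPKM hold Il1rn between 10.7 and 38.6 FPKM.

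Some of the genes that IL-1 is known to induce rose in adapted cells, and most did not pass the test. Of 24 such genes, 22 were tested in WT cells, where 3 rose and 0 fell; 24 were tested in CIZ1 null cells, where 7 rose and 0 fell; and 23 over both genotypes, where 9 rose and 0 fell. All units rose at rates of 2.87%, 1.40% and 14.1% in these comparisons. The median change of the genes was 1.16, 0.95 and 0.93 on the log2 scale. The list was drawn up with results of these data known and many other signals induce the same genes, so it says nothing on its own about IL-1 itself.

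The largest rise was in Lcn2, an iron-binding acute phase protein, which went from 0.103 to 0.156 FPKM in primary WT cells to 346 to 454 FPKM in adapted WT cells (log2 change 8.51 ± 0.17, limma adjusted p = 2.13e-05). In CIZ1 null cells it went from 0.178 to 0.653 FPKM to 28.2 to 414 FPKM (6.50 ± 0.90, adjusted p = 0.0248). C3, the central complement protein, rose from 0.583 to 1.35 FPKM to 22.9 to 129 FPKM in WT cells and from 0.745 to 2.80 FPKM to 57.1 to 162 FPKM in null cells (4.88 ± 0.59 and 5.56 ± 0.49). Both genes were higher in 6 of 6 lines without overlap with any of the 6 primary populations, as 17.4% of units were higher or lower.

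Saa3, another acute phase protein, was at 171 to 196 FPKM in the adapted null lines against 0.223 to 0.838 FPKM in primary null cells (6.89 ± 0.21, limma adjusted p = 0.000175). In adapted WT cells it was at 58.1 FPKM in E13.8 and 85.4 FPKM in E14.4, but at 0.226 FPKM in E13.1. That line also had little Cxcl1, a neutrophil chemokine, at 0.520 FPKM, where the other 5 adapted lines had 58.6 to 161 FPKM. In the units used it had the lowest Il1rn and Il1r1 of all populations. In another unit of Il1r1 at the same coordinates S14 was lower, at 5.26 FPKM against 5.49 FPKM in adapted WT E13.1. Mmp3, a matrix protease, was at 93.3 to 534 FPKM in adapted null lines (4.94 ± 0.99, adjusted p = 0.0466) and at 10.0 to 55.1 FPKM in adapted WT lines. Sod2, a mitochondrial antioxidant enzyme, rose in both genotypes, by 1.07 ± 0.16 and 1.73 ± 0.25. With embryo as a block the genes called were Lcn2, C3 and Ptx3 in WT cells, C3 and Saa3 in null cells, and 9 over both genotypes. The calls of Sod2 within each genotype and those of Lcn2 and Mmp3 in null cells were thus lost with the block. Without any 1 of the primary populations the counts of rising genes fell to 1 in WT cells, to 1 or 2 in null cells and to no fewer than 7 over both. Without adapted WT E13.1 or E14.4, 6 or 5 genes rose in WT cells, and without adapted null E14.2, 3 rose in null cells.

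**Figure D5:**
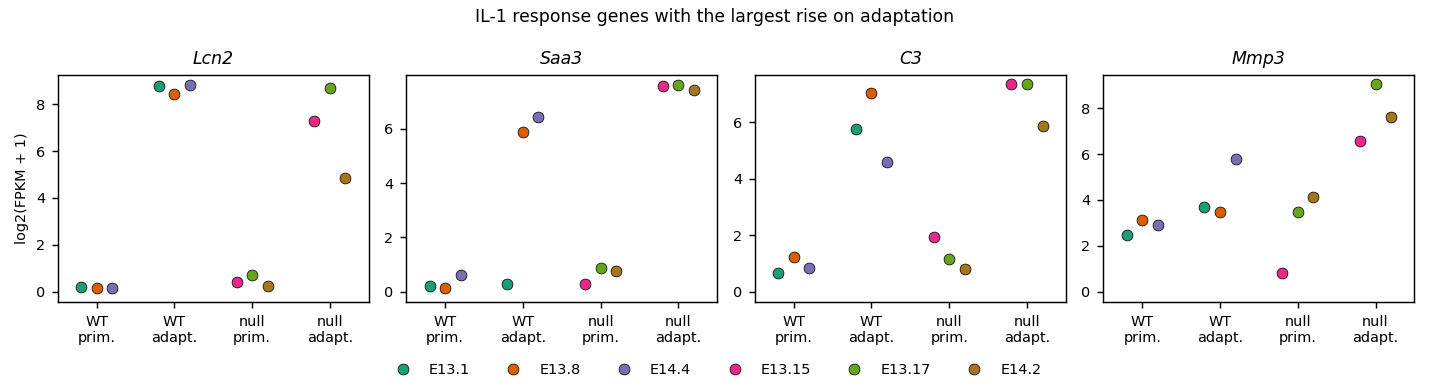
Level, as log2(FPKM + 1), of the 4 IL-1 response genes with the largest change over both genotypes in the 12 main populations; each point is 1 population, coloured by embryo. Lcn2 and C3 are above the primary range in 6 of 6 adapted lines, and Saa3 stays at 0.226 FPKM in adapted WT E13.1.

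Among 25 genes of the signalling pathway the changes went both ways. Of 24 tested, 1 rose and 2 fell in WT cells, 2 rose and 0 fell in null cells, and 7 rose and 5 fell over both genotypes, where 9.55%, 4.86% and 33.3% of all units were called. Map3k8, the kinase that links NF-κB1 to the MAP kinases, rose by 1.68 ± 0.23 in WT and 2.08 ± 0.23 in null cells (limma adjusted p = 0.0155 and 0.0209). Nfkbia, the NF-κB inhibitor that is itself an NF-κB target, rose by 1.78 ± 0.22 in null cells (adjusted p = 0.0215). In WT cells Peli1, an IRAK-associated ubiquitin ligase, fell by 1.97 and Irak2, a receptor-proximal kinase, fell by 1.15 on the log2 scale (adjusted p = 0.0297 and 0.039). Over both genotypes Irak3, an inhibitory member of that kinase family, rose by 1.09 ± 0.33 (adjusted p = 0.0236). With embryo as a block, Map3k8 and Peli1 were called in WT cells, where the call of Irak2 was lost, and 0 signalling genes were called in null cells, and 0 also in each genotype without any 1 of its primary populations. The number called in WT cells was 1 without adapted E13.8 and 6 without adapted E14.4, and in null cells 5 without adapted E13.15.

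Of 15 genes that process or release the ligands, 6 were tested; 2 were called in WT cells, 1 in null cells and 2 over both genotypes, against 9.55%, 4.86% and 33.3% of all units. Casp4 (caspase-11 in mouse), the caspase that senses cytosolic lipopolysaccharide, rose in WT cells from 0.921 to 1.54 FPKM to 4.94 to 26.0 FPKM (2.55 ± 0.52, limma adjusted p = 0.0362). In null cells it rose from 0.401 to 0.655 FPKM to 10.9 to 40.8 FPKM (3.85 ± 0.44, adjusted p = 0.0209), so all 6 lines lay above the 6 primary populations; 17.4% of all units had no overlap over both genotypes, in either direction. Capn2, a calpain subunit, fell by 0.93 in WT cells (adjusted p = 0.0212). These calls within a genotype were lost with embryo as a block or without any 1 primary population of that genotype. That of Casp4 was also lost without adapted WT E13.1 or null E14.2. Over both genotypes Casp4 rose (3.20 ± 0.40, limma adjusted p = 0.000302) and Capn2 fell, also with the block. The call of Capn2 over both genotypes was lost with quantile normalization, and that in WT cells with all 4 groups in a single fit. Casp1, which matures IL-1β and IL-18, was at 0 in 5 of 6 adapted lines and no higher than 0.986 FPKM anywhere, and Nlrp3 did not exceed 0.527 FPKM. Of the 17 other ligands, receptors and decoys of the family 13 were in the table, 3 were tested (Il1rl2, Il18rap and Il18bp) and 0 were called in any comparison. Without adapted WT E14.4, the line with the most Il1rl2, that gene was called lower in WT cells. The value of this line was known, so this is a description. Il1r2, the decoy receptor, did not exceed 1.95 FPKM, and Il18bp, the soluble inhibitor of IL-18, stayed within 1.87 to 4.39 FPKM.

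Loss of CIZ1 was compared within primary and within adapted cells. In primary cells 4 members were tested and 0 were called, where 0.00511% of all units, a single one, was. Il1r1 had the smallest p (8.19 to 11.1 FPKM in WT, 10.1 to 16.7 FPKM in null cells; log2 change 0.44 ± 0.20, limma adjusted p = 0.815), and by unadjusted p under 0.05 there were 0 members and 6.26% of units. Il1rn differed by 0.42 ± 0.40, Il1rap by -0.31 ± 0.31 and Il1rl1 by 0.01 ± 0.16, with overlapping groups for each. In adapted cells 6 members were tested and 0 were called, against 0.00501% of units, and 0 had an unadjusted p under 0.05, against 4.02%. Il1rap was 6.65 to 19.9 FPKM in WT and 12.2 to 59.4 FPKM in null lines, a difference of 1.59 ± 0.67 with an unadjusted p of 0.0505 (limma adjusted p = 0.998). The SEs of the 6 differences ran from 0.48 for Il1r1 to 2.36 for Il1rn on the log2 scale.

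Whether adaptation changed the members differently in the 2 genotypes was tested as an interaction, in which 0 of 6 members and 0% of all units were called. Il1rap had the largest interaction relative to its error, at 1.90 ± 0.80 more in null than in WT cells (unadjusted p = 0.0376, limma adjusted p = 0.996). By unadjusted p under 0.05 it was the only member, and 4.63% of units passed by that measure. The interaction was -1.25 ± 2.66 for Il1rn and -1.40 ± 1.0 for Il33.

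Induction of GFP-CIZ1 was compared between the 2 treated and the 2 untreated transgenic primary populations. The labels do not give the embryos of S13, S14 and S15, so any pairing by embryo was left out of the fit. Of 6 members tested 0 were called, against 0.0101% of units, and 0 had an unadjusted p under 0.05, against 1.76%. Il1rl1 was at 173 and 298 FPKM in S14 and S15 and at 144 and 99.9 FPKM in untreated E13.17 and S13. It was the only member whose groups did not overlap, as was the case for 19.7% of all units, and its log2 change was 0.91 ± 0.37 (limma adjusted p = 1). Il1r1 was at 6.31 and 26.2 FPKM with doxycycline and 10.1 and 12.4 FPKM without it, and Il1rap at 5.42 and 19.4 FPKM against 5.00 and 10.9 FPKM. In both, S14 was low and S15 high, and the groups overlapped. Il1rn was at 7.71 and 16.1 FPKM against 38.6 and 10.7 FPKM, Il33 at 0.059 and 0.772 FPKM against 0.499 and 3.35 FPKM, and Il18 at 1.45 and 1.51 FPKM against 0.871 and 1.71 FPKM. These groups overlapped too, and S13 had 0.483 times the reference depth. None of the signalling, processing or response genes was called in the CIZ1 loss, interaction or induction comparisons.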

How the data were processed

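RNA from 15 populations was analysed. The deposited FPKM values, 1 per unit and sample, were made by the authors by trimming with cutadapt 1.8.3, alignment to GRCm38 with HISAT2 2.0.5, and assembly and normalization with Cufflinks and Cuffnorm, as named in the submitters' processing notes; a Cuffdiff 2.2.1 table holds their own fold changes, p-values and q-values and was not used. The deposited values hold no counts, so total depth is unknown; relative depth came from the smallest values of 4578 units under 0.3 FPKM. FPKM also moves when a few abundant transcripts change.

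Groups followed the sample labels. All values were tested as log2(FPKM + 1) with limma 3.58.1 (trend, two-sided) in R 4.3.3, over units with a mean of at least 1 FPKM in the samples compared, with Benjamini-Hochberg adjustment over all of them and a threshold of 0.05. A "call" is an adjusted p under that threshold, and a log2 change on this scale understates that of low genes. The script was tested on simulated data. The members and gene lists were chosen with earlier results of these data known. Named were all members, at most 4 called genes per list and comparison, the 3 best-correlated genes per member, Ciz1, and levels needed to describe a list; other genes and orders given were chosen after their values were seen.

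Adapted lines were matched to primary populations by embryo: all 737 to 845 values compared per sample were identical to 1 of the study's per-embryo tables. Deviations of paired populations correlated at -0.021 to 0.211 over 20046 units. Fits with embryo as a block, other pseudocounts (0.1), filters, scaling and samples were alternatives, as was summing all units of a gene, chosen after seeing the data. The labels do not say whether the 3 populations of a group were grown and sequenced together.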

Additional observations from a re-analysis of the deposited data

How the results depend on the processing

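The number of members called stayed at 0 in 94 of 98 combinations of comparison and setting. The exceptions each left out 1 adapted line: leave-one-out counts ran from 0 to 1 in WT adaptation (1 without E13.8, Il1rn, and 1 without E14.4, Il1rl1), from 0 to 1 in CIZ1 null adaptation (1 without E13.17, Il1rap) and from 0 to 1 over both genotypes (1 without WT E13.8, Il1rn). With embryo as a replicate block 0 members were called, the smallest limma adjusted p being 0.209 in WT cells, 0.0929 in CIZ1 null cells and 0.157 over both genotypes; no call on a member changed. Of 523 member changes under alternatives, 493 stayed within 1 SE and 40 had another sign, 6 of them for changes above 0.5 on the log2 scale. Of the response genes, 1 rose in CIZ1 null cells when only the 2 primary populations without a transgene were used. Groups of 3 limit what can be called among lines this variable, and units sharing coordinates can divide a gene's reads.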
